A study of Mus musculus with 6 samples.

Results

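The genes described here are the glutathione, thioredoxin and antioxidant enzymes, 46 genes taken by mouse symbol from the 50600 gene identifiers of the count files. All 46 were found and all passed the low count filter. Polyadenylated RNA came from primary cortical thymic epithelial cells (cTECs) of mice aged 8 to 10 weeks. The 3 KO libraries were homozygous for the targeted allele Psmb11tm1Smta (strain B6.B6CB-Psmb11tm1Smta, Psmb11-/-), and the 3 WT libraries carried Psmb11+/+ on the strain of that name. Libraries are named KO A to KO C and WT A to WT C after the replicate letters. The labels do not say how the cells were sorted, whether a library pools mice or whether the replicates are separate mice, so p-values measure the spread between these samples only. Medullary cells and thymocytes named in the series design were not analysed here.

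Cells keep oxidants in check with 2 linked thiol systems. In one, glutathione is made from glutamate, cysteine and glycine, is used by peroxidases and transferases, and is reduced again by glutathione reductase. In the other, thioredoxin reduces the peroxiredoxins that break down hydrogen peroxide, and thioredoxin reductase restores it; both reductases spend NADPH. Many of these enzymes are targets of the transcription factor Nrf2 (Nfe2l2), which binds antioxidant response elements with small Maf proteins. Nrf2 is held down by Keap1, which marks it for the proteasome, and Psmb11 encodes the cTEC-specific catalytic proteasome subunit β5t.

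Levels are given as CPM, counts scaled to library size with TMM factors (trimmed mean of M values), within a gene and as TPM, which also divides by transcript length, between genes. A gene was called at an adjusted p below 0.05 in the edgeR quasi-likelihood test over all genes. Libraries held 34265035 to 39224292 gene counts. Psmb11, the targeted gene, had 1.81, 0.977 and 1.199 CPM in the KO libraries (A, B and C) against 241, 259 and 257 CPM in the WT libraries (A, B and C; log2 fold change -7.56, SE 0.099, edgeR adjusted p = 1.65e-11). Beside Psmb11, none of 13 other cTEC markers was at 0 in any library, and their summed level was 8779 to 9866 CPM in KO and 12993 to 13406 CPM in WT, with 11 called lower and 1 higher. Over all genes tested, 12.5% were called higher and 11.1% lower. Markers in 4 lists of other cells moved with genotype. Summed levels of 13 medullary epithelial markers were 5412 to 5809 CPM in KO and 4029.7 to 4599 CPM in WT (7 called higher). Those of 14 fibroblast and pericyte markers were 1294 to 1389.9 CPM in KO and 896 to 1008 CPM in WT (10 higher). For 14 dendritic cell and macrophage markers they were 82.9 to 91.4 CPM in KO and 46.3 to 53.7 CPM in WT (8 higher). For 8 tuft cell markers they were 170.4 to 218 CPM in KO and 109.7 to 121 CPM in WT (6 higher). No marker of those 4 lists was at 0 in all libraries, and Mfap5 and Fcgr1 were at 0 in at least 1. The 8 erythroid markers summed to 0.322 to 1.54 CPM in KO and 0.406 to 1.59 CPM in WT, with Slc4a1 at 0 throughout, and the 14 thymocyte markers to 61.5 to 113 CPM in KO and 65.6 to 80.04 CPM in WT. Of 13 thymocyte markers tested edgeR called 0, with 0 at an unadjusted p below 0.05 and 1 called by DESeq2. The 8 endothelial markers summed to 15.7 to 47.6 CPM in KO and 13.04 to 35.7 CPM in WT. The 6 B cell markers summed to 19.4 to 25.2 CPM in KO and 19.2 to 21.6 CPM in WT. Of 7 endothelial and 3 B cell markers tested, edgeR and DESeq2 called 0, with 0 at an unadjusted p below 0.05 in edgeR. The part of these cells in the differences below was not tested, and in bulk RNA fewer cells of a type and less RNA per cell cannot be told apart.

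Many of the antioxidant enzymes were slightly lower in KO and a few were higher, by a larger factor than most of the falls. Calls were made for 58.7% of the 46 genes, against 23.6% of all 16938 genes tested. Falls numbered 23 of 46, where 11.1% of all genes fell, rises numbered 4 (8.7%, against 12.5%), and the other 19 genes had no call. The genes that fell included the quinone reductase Nqo1, malic enzyme Me1, both intracellular superoxide dismutases, both thioredoxins and 4 of 6 peroxiredoxins. Those that rose were the omega class transferase Gsto1, the peroxidases Gpx2 and Gpx3 and the oxidative stress gene Osgin1. The median log2 fold change was -0.15 over the 46, against -0.0008 over all genes tested.

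Because most of these genes are abundant, they were also set against genes at or above a floor in level. Of the 39 with a mean of at least 10 CPM, 22 fell (56.4%) and 2 rose (5.13%), against 16.9% and 11.8% of the 10064 genes at or above that floor. Levels above the floor were not matched, so the part of level in these shares was not tested. KO and WT libraries had no CPM overlap for 33 of the 46 (71.7%), against 39.3% of all genes tested. Falls were small: 1.09-fold to 1.70-fold with a median of 1.17-fold, and 21 of 23 were under 1.3-fold. Tested against a fold change of 1.2, a test added after the data were seen, 5 of 46 passed (10.9%, against 5.63% of all genes): Nqo1 and Me1 lower, and Gsto1, Gpx2 and Osgin1 higher. On the TPM scale, with limma on log2(TPM + 1), 10 of the 23 falls were not called: G6pdx, Gsr, Gss, Gsta4, Gstt1, Prdx1, Sod2, Srxn1, Taldo1 and Tkt (adjusted p 0.0751 to 0.598).

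**Figure D1:**
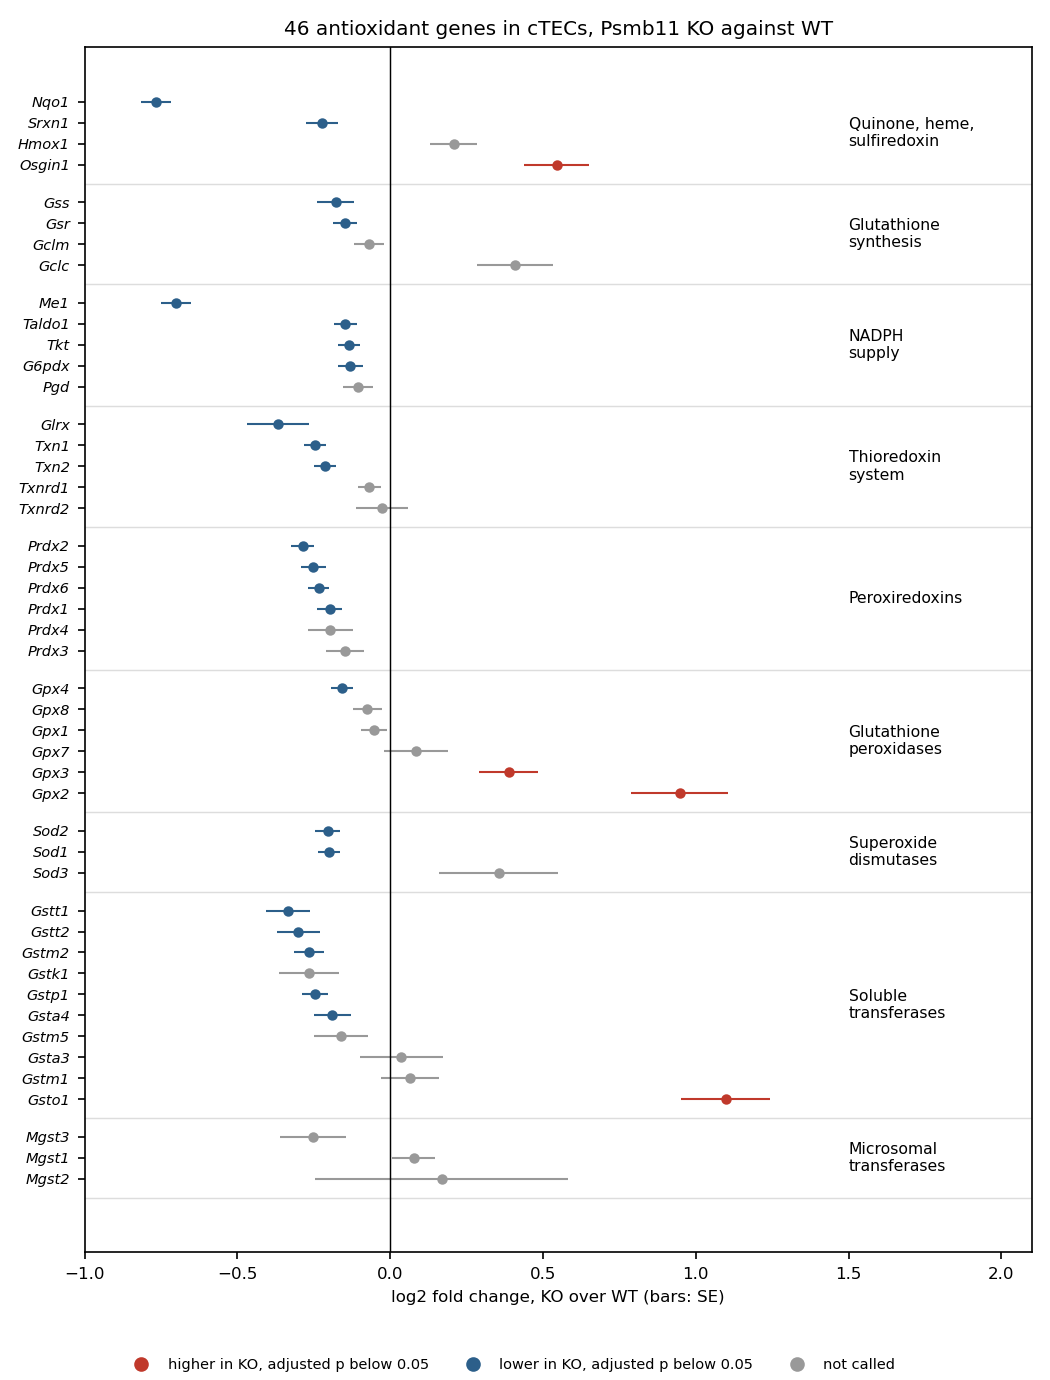
Log2 fold change of each of the 46 genes, KO over WT, with its SE (horizontal axis), ordered by value within role classes. Of the 46 points 23 are called lower and 4 higher, with Nqo1 (-0.76) and Me1 (-0.70) farthest to the left and Gsto1 (1.10) and Gpx2 (0.95) farthest to the right.

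In transcript abundance the 46 spanned a wide range, from Sod1 with a mean of 589 TPM over the 6 libraries to Mgst2 with 0.763 TPM. After Sod1, cytosolic superoxide dismutase, came the secreted peroxidase Gpx3 (572 TPM), the lipid peroxidase Gpx4 (430.5 TPM), the mu class transferase Gstm2 (356 TPM), Prdx2 (327 TPM) and Txn1 (306 TPM). In WT libraries Sod1 lay at 612 to 649 TPM and Gpx3 at 429 to 545 TPM, while in KO libraries Sod1 lay at 541 to 561 TPM and Gpx3 at 634 to 685 TPM. The order of the leading pair thus differed between the genotypes, with no overlap in either. Txn1 was closely followed by Prdx6 and Gstp1, at means of 303 and 302 TPM. In all, 16 genes averaged at least 100 TPM and 2, Sod3 and Mgst2, were under 5 TPM.

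**Figure D2:**
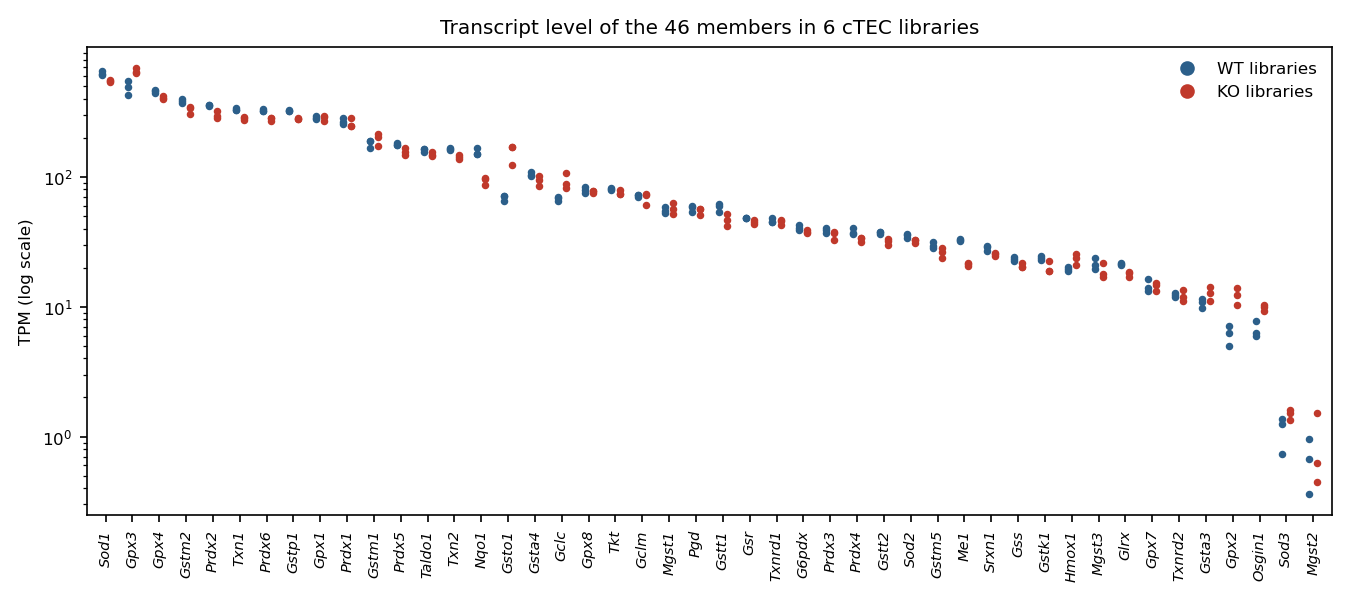
TPM of each of the 46 genes in the 6 libraries (vertical log axis), ordered by mean level, with WT libraries in blue and KO libraries in red. Sod1 and Gpx3 lead, Sod3 and Mgst2 are lowest, and the KO and WT points stand clearly apart for Nqo1, Gsto1, Me1, Gpx2 and Osgin1.

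Promoters were searched for the core of the antioxidant response element, TGACNNNGC, on both strands, from 250 bases before to 50 after each RefSeq start (GRCm38.p6). Of the 46 genes 39 were in the promoter table, with 49 windows, and 11 windows of 11 genes held a match (22.4% of windows, against 12.4% of all 32851 windows of that length). The 11 matches are given with 10 bases on either side so that called and uncalled genes can be compared letter by letter. Capitals mark the match, and each sequence runs 5′ to 3′ in the direction of the motif. Genes called lower come before those not called.
Me1: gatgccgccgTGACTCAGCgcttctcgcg
Prdx1: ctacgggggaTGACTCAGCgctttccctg
Srxn1: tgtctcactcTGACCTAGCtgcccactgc
Sod1: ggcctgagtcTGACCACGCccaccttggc
G6pdx: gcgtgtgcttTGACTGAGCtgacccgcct
Gclm: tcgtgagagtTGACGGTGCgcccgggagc
Txnrd1: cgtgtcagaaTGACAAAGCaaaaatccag
Gsta3: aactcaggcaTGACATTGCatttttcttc
Gstm5: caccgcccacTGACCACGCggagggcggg
Mgst1: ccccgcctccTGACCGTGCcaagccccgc
Pgd: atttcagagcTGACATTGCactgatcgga

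Me1 (chr9:86695902-86695930, minus strand) and Prdx1 (chr4:116685456-116685484, minus strand) had the same match, TGACTCAGC, which also holds TGACTCA, the consensus of AP-1. Counted along the gene from the start site, the match begins at position -6 in Me1, which fell 1.62-fold, and at -133 in Prdx1, which fell 1.147-fold. Sod1 (chr16:90220696-90220724, minus strand), which fell, and Gstm5 (chr3:107895802-107895830, plus strand), which was not called, shared TGACCACGC. Gsta3 (chr1:21240454-21240482, plus strand) and Pgd (chr4:149166061-149166089, minus strand) shared TGACATTGC, and neither was called. The other matches lay at chrX:74428919-74428947 (plus strand) for G6pdx and, on the minus strand, at chr2:152105542-152105570 for Srxn1, chr3:122245413-122245441 for Gclm, chr10:82859104-82859132 for Txnrd1 and chr6:138140461-138140489 for Mgst1. The windows of Nqo1 and of the genes that rose, Gsto1, Gpx2, Gpx3 and Osgin1, held no match. Nor did those of the other searched genes, among them genes called lower and genes not called. Sequence outside the windows was not searched. Hmox1, Gclc, Gsr, Prdx6, Gsta4, Gstt2 and Sod3 were not searched.

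Nqo1, Hmox1, Srxn1 and Osgin1 are textbook genes of the oxidative stress response, and they did not move as one. Nqo1 reduces quinones without forming radicals and lies on chromosome 8, 107388225 to 107403206, minus strand (GRCm38). It had 81.5, 79.8 and 72.8 CPM in the KO libraries (A, B and C) against 129, 141 and 128 CPM in the WT libraries (A, B and C) (log2 fold change -0.76, SE 0.049, edgeR adjusted p = 1.99e-07). Every KO library was thus below every WT library, by 1.70-fold between the means. Srxn1 encodes sulfiredoxin, which restores overoxidised peroxiredoxins, and had 32.8, 34.4 and 33.0 CPM in KO against 36.6, 40.7 and 39.6 CPM in WT (log2 fold change -0.22, SE 0.053, edgeR adjusted p = 0.00572). The fall was small beside that of Nqo1, though the groups did not overlap. Osgin1, a growth inhibitor induced by oxidative stress, had 10.4, 10.04 and 10.7 CPM in KO against 6.36, 8.02 and 6.93 CPM in WT, a rise of 1.46-fold (log2 fold change 0.55, SE 0.11, edgeR adjusted p = 0.00144). Hmox1, which degrades heme, had 21.2, 17.9 and 19.6 CPM in KO against 17.6, 15.9 and 17.4 CPM in WT, with no call (log2 fold change 0.21, SE 0.077, edgeR adjusted p = 0.0631). All KO values of Hmox1 were above all WT values, and a call was made without KO B (adjusted p = 0.0271) and with the replicate letter as a block (adjusted p = 0.0422).

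**Figure D3:**
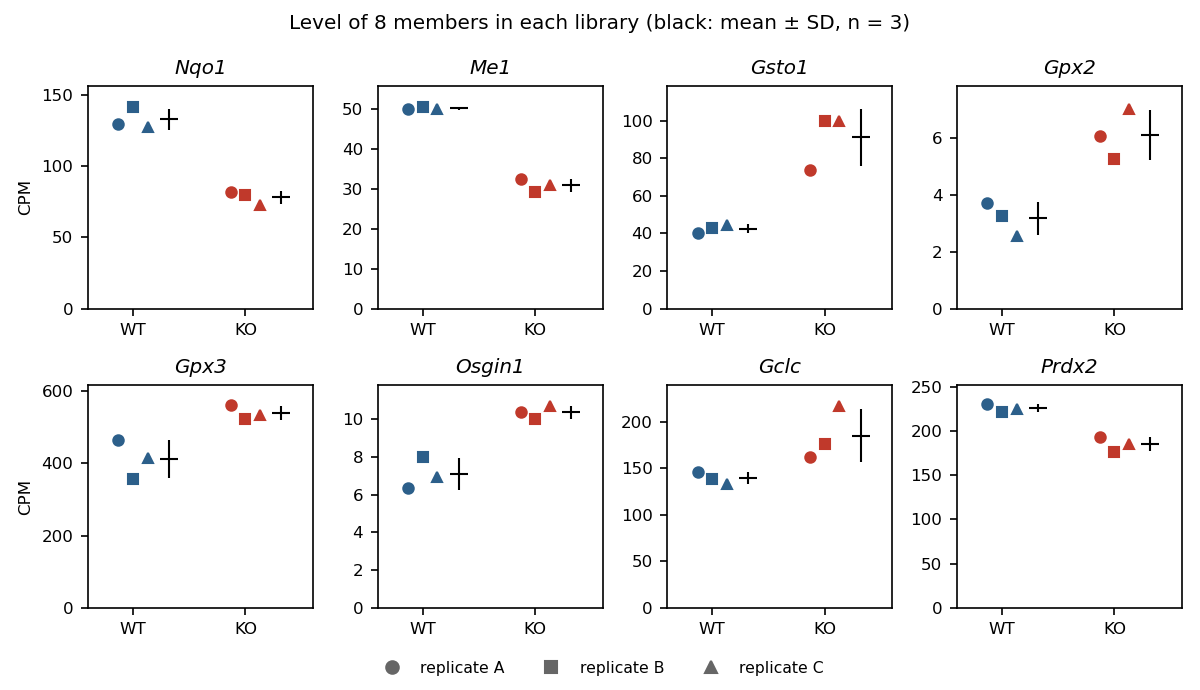
CPM of 8 of the genes in each library (vertical axes start at 0), WT in blue and KO in red, with replicates A, B and C as circles, squares and triangles and the mean ± SD in black. KO and WT points do not overlap in any of the 8 panels; KO A is the lowest KO point for Gsto1 (73.5 CPM) and Gclc (162 CPM).

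Glutathione synthesis begins with glutamate-cysteine ligase, made of the catalytic subunit Gclc and the modifier subunit Gclm, and ends with the synthetase Gss; Gsr reduces the oxidised form. Gclc had 162, 177 and 217 CPM in KO against 147, 138 and 134 CPM in WT, with no call (log2 fold change 0.41, SE 0.12, edgeR adjusted p = 0.083). Its values did not overlap between genotypes but the KO libraries spread widely, at 185 ± 28.8 CPM across KO libraries and 139 ± 6.61 CPM across WT libraries (SD, n = 3 each). Gclc was called higher with DESeq2 (adjusted p = 0.0135), without KO C (edgeR adjusted p = 0.0015) and without KO A (edgeR adjusted p = 0.0273). The partner subunit Gclm had 47.4, 53.5 and 49.6 CPM in KO against 52.2, 52.6 and 53.1 CPM in WT, overlapping and not called (log2 fold change -0.069, adjusted p = 0.334). On the TPM scale the ratio of Gclc to Gclm was 1.35, 1.22 and 1.46 in KO and 0.980, 0.974 and 0.899 in WT, so that Gclc exceeded Gclm in each KO library and lay below it in each WT library. Gss and Gsr both fell. Gss had 22.4, 21.2 and 21.1 CPM in KO against 25.2, 24.7 and 23.5 CPM in WT (log2 fold change -0.18, SE 0.060, edgeR adjusted p = 0.0423), a call lost without any one of KO B, KO C, WT A, WT B and WT C (adjusted p up to 0.141) and with DESeq2 (adjusted p = 0.0942). Gsr had 71.7, 68.5 and 67.7 CPM in KO against 77.0, 76.8 and 76.6 CPM in WT (log2 fold change -0.15, SE 0.039, edgeR adjusted p = 0.0115).

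NADPH for both reductases comes from the pentose phosphate pathway and from malic enzyme. Of 5 genes of these routes 4 fell (80%, against 11.1% of all genes). Me1, cytosolic malic enzyme (chromosome 9, 86581371 to 86695953, minus strand), had 32.6, 29.3 and 30.9 CPM in KO against 50.1, 50.7 and 50.1 CPM in WT (log2 fold change -0.70, SE 0.050, edgeR adjusted p = 1.99e-07). The WT libraries were within a narrow band, and each KO library lay well below it, a fall of 1.62-fold. G6pdx, the first enzyme of the pentose phosphate pathway, had 53.0, 55.0 and 51.9 CPM in KO against 57.5, 59.5 and 58.0 CPM in WT (log2 fold change -0.13, SE 0.042, edgeR adjusted p = 0.0337). The transaldolase Taldo1 had 97.8, 93.8 and 92.2 CPM in KO against 102, 105 and 107 CPM in WT (log2 fold change -0.15, SE 0.038, edgeR adjusted p = 0.00997). Tkt, transketolase, had 131, 126 and 122 CPM in KO against 139.6, 141 and 135 CPM in WT (log2 fold change -0.13, SE 0.037, edgeR adjusted p = 0.0149). These 3 falls were of 1.09-fold, 1.11-fold and 1.10-fold with no overlap. Pgd, the second dehydrogenase, was not called at 63.6 ± 3.83 CPM across KO libraries and 68.4 ± 2.97 CPM across WT libraries (SD, n = 3 each), with an edgeR adjusted p of 0.141, and was called lower without KO C (adjusted p = 0.0458). Me1 kept its call without any one library, whereas those of the others were lost: G6pdx without KO A, KO C or any WT library, Taldo1 without WT C, and Tkt without KO C, WT A or WT B (edgeR adjusted p up to 0.123, 0.0586 and 0.0712). G6pdx was also not called with DESeq2 (adjusted p = 0.0838) or with the low count filter set at 5 CPM on average (edgeR adjusted p = 0.0595).

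In the thioredoxin system the small thiol proteins fell while the reductases were not called. Txn1, cytosolic thioredoxin, had 163, 159 and 153 CPM in KO against 189, 181 and 193 CPM in WT (log2 fold change -0.25, SE 0.038, edgeR adjusted p = 2.07e-04). Its mitochondrial counterpart Txn2 had 92.3, 93.7 and 89.1 CPM in KO against 106, 107 and 105 CPM in WT (log2 fold change -0.21, SE 0.036, edgeR adjusted p = 4.98e-04). The separation was complete for both, with falls of 1.19-fold and 1.16-fold. Glrx, glutaredoxin, which uses glutathione to reduce proteins, had 6.79, 6.92 and 7.61 CPM in KO against 9.46, 8.83 and 9.19 CPM in WT (log2 fold change -0.37, SE 0.10, edgeR adjusted p = 0.0145), and lost its call without WT A or WT C (adjusted p = 0.0558 and 0.0536). The cytosolic reductase Txnrd1 was at 72.0 ± 1.05 CPM across KO libraries and 75.4 ± 1.65 CPM across WT libraries (SD, n = 3 each), with an adjusted p of 0.226 in edgeR. Its KO values were nonetheless all below its WT values. The mitochondrial reductase Txnrd2 was at 11.5 ± 0.365 CPM across KO libraries and 11.7 ± 0.641 CPM across WT libraries (SD, n = 3 each), with an adjusted p of 0.868 in edgeR.

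All 6 peroxiredoxins had negative fold changes and 4 were called lower (66.7%, against 11.1% of all genes). Prdx2, a cytosolic peroxiredoxin, had 193, 177 and 186 CPM in KO against 230.4, 222 and 225 CPM in WT (log2 fold change -0.29, SE 0.038, edgeR adjusted p = 5.33e-05). Prdx6, which works with glutathione, had 205, 196 and 203 CPM in KO against 242, 236 and 234 CPM in WT (log2 fold change -0.23, SE 0.034, edgeR adjusted p = 1.30e-04). Both were lower in every KO library, by 1.22-fold and 1.18-fold between the means. Prdx5, found in mitochondria, peroxisomes and cytosol, had 81.3, 88.7 and 89.4 CPM in KO against 103, 103 and 102 CPM in WT (log2 fold change -0.25, SE 0.041, edgeR adjusted p = 3.44e-04). Prdx1, the other main cytosolic form, had 177, 162 and 165 CPM in KO against 187, 189.8 and 202 CPM in WT (log2 fold change -0.20, SE 0.041, edgeR adjusted p = 0.00222). Prdx1 did not keep its call on the TPM scale (limma on log2(TPM + 1): -0.062, adjusted p = 0.598), where KO A had 283 TPM against 247 and 246 TPM in KO B and KO C. The mitochondrial Prdx3 and the endoplasmic reticulum form Prdx4 were not called (log2 fold changes -0.15 and -0.20, adjusted p = 0.0971 and 0.0654), though Prdx4 was called lower without KO A (edgeR adjusted p = 0.044).

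Glutathione peroxidases moved in both directions. Gpx3, the secreted form, had 560.0, 521 and 535 CPM in KO against 464, 357 and 414 CPM in WT, a rise of 1.31-fold (log2 fold change 0.39, SE 0.096, edgeR adjusted p = 0.0355). Its KO libraries were close together and its WT libraries were not, and it was no longer called when any KO library or WT C was left out (edgeR adjusted p = 0.151, 0.0781, 0.13 and 0.107). Gpx2, known as the gastrointestinal form (chromosome 12, 76792333 to 76795554, minus strand), had 6.06, 5.26 and 7.02 CPM in KO against 3.72, 3.26 and 2.56 CPM in WT (log2 fold change 0.95, SE 0.16, edgeR adjusted p = 4.69e-04). It rose 1.93-fold from a low level and kept its call without any one library. Gpx4, which reduces lipid peroxides in membranes, had 134, 133 and 128 CPM in KO against 145, 149 and 148 CPM in WT, a small fall (log2 fold change -0.16, SE 0.035, edgeR adjusted p = 0.00348). Gpx1, the main cytosolic form, was not called at 113 ± 6.10 CPM across KO libraries and 118 ± 2.48 CPM across WT libraries (SD, n = 3 each), with an adjusted p of 0.398 in edgeR. The endoplasmic reticulum forms Gpx7 and Gpx8 were not called either (log2 fold changes 0.084 and -0.075). On the TPM scale Gpx3 to Gpx1 was 2.31, 2.35 and 2.23 in KO and 1.94, 1.504 and 1.66 in WT, higher in each KO library than in any WT library.

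Both intracellular superoxide dismutases fell, by 1.148-fold and 1.152-fold. Sod1 had 165, 165 and 169 CPM in KO against 189, 186 and 198 CPM in WT (log2 fold change -0.20, SE 0.035, edgeR adjusted p = 6.74e-04). Sod2, the mitochondrial form, had 67.4, 65.4 and 64.7 CPM in KO against 76.8, 77.8 and 73.0 CPM in WT (log2 fold change -0.20, SE 0.041, edgeR adjusted p = 0.00174). The ratio of Sod2 to Sod1 in TPM was 0.0606, 0.0588 and 0.0556 in KO and 0.0585, 0.0590 and 0.0521 in WT, with overlap between genotypes. Sod3, the extracellular form, was at 2.99 ± 0.279 CPM across KO libraries and 2.33 ± 0.571 CPM across WT libraries (SD, n = 3 each) and was not called (log2 fold change 0.35, adjusted p = 0.212).

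Soluble glutathione transferases attach glutathione to reactive compounds. Of 10 of them 5 fell (50%, against 11.1% of all genes) and 1 rose (10%, against 12.5%). Gsto1, an omega class enzyme with thioltransferase and dehydroascorbate reductase activity (chromosome 19, 47854970 to 47864790, plus strand), had 73.5, 99.9 and 99.99 CPM in KO against 40.1, 42.8 and 44.7 CPM in WT, a rise of 2.14-fold (log2 fold change 1.10, SE 0.15, edgeR adjusted p = 0.00683). KO A was the lowest of the KO libraries but still far above the WT libraries, and without it the log2 fold change was 1.23. Cfap43 overlaps Gsto1 on the opposite strand, and counts without strand gave 1.10. Gstm2, the most abundant transferase, had 148, 167 and 169 CPM in KO against 190.4, 191 and 202 CPM in WT (log2 fold change -0.27, SE 0.049, edgeR adjusted p = 0.00146). Its mu class neighbour Gstm1 on chromosome 3 had 106, 127 and 133 CPM in KO against 108, 118 and 124 CPM in WT, with no call (log2 fold change 0.065, adjusted p = 0.694), though it was called higher without KO A (edgeR adjusted p = 0.034). The ratio of Gstm1 to Gstm2 in TPM was 0.569, 0.605 and 0.623 in KO and 0.446, 0.491 and 0.477 in WT, with no overlap.

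The pi class enzyme Gstp1 had 56.0, 54.1 and 55.0 CPM in KO against 68.0, 63.7 and 64.0 CPM in WT (log2 fold change -0.25, SE 0.042, edgeR adjusted p = 5.46e-04). Of the theta class, Gstt1 had 22.0, 27.0 and 24.1 CPM in KO against 29.0, 30.8 and 32.2 CPM in WT (log2 fold change -0.33, SE 0.071, edgeR adjusted p = 0.00323). Gstt2 had 14.8, 14.9 and 14.7 CPM in KO against 17.9, 18.0 and 18.7 CPM in WT (log2 fold change -0.30, SE 0.069, edgeR adjusted p = 0.00501). KO libraries were below WT libraries for all 3, by 1.19-fold, 1.26-fold and 1.23-fold. Gsta4, an alpha class enzyme active on the lipid peroxidation product hydroxynonenal, had 42.0, 50.6 and 46.6 CPM in KO against 52.0, 54.9 and 51.8 CPM in WT (log2 fold change -0.19, SE 0.059, edgeR adjusted p = 0.0329), a call lost without KO A, KO C or any WT library (adjusted p up to 0.132). Gstk1, Gstm5 and Gsta3 were not called (log2 fold changes -0.26, -0.16 and 0.037), and Gstk1 was called lower without KO C (edgeR adjusted p = 0.0196). KO A was the lowest KO library for 6 of these 10 genes, though over all 46 genes KO A, KO B and KO C were lowest for 15, 15 and 16. In KO A the thymocyte markers summed to 113 CPM, against 72.0 and 61.5 CPM in KO B and KO C; their part in the spread was not tested. Microsomal transferases sit in membranes, and none of 3 was called by edgeR, where 23.6% of all genes were. Mgst1 had 20.4, 20.7 and 22.2 CPM in KO against 20.03, 18.5 and 21.3 CPM in WT (log2 fold change 0.077, adjusted p = 0.473), and Mgst2 and Mgst3 had log2 fold changes of 0.17 and -0.25. DESeq2 called 0 of the 3 as well, and 1, Mgst3, had an unadjusted p below 0.05 in edgeR and was called lower without KO A (adjusted p = 0.0188).

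Counts of uniquely mapped reads leave out reads shared between near-identical copies, whereas RSEM divides them among the copies, and some genes differed between the 2 counts. Gstp1, Glrx and Gpx4 had 60.3%, 63.5% and 83.7% as many counts as RSEM assigned to them, where the median over the 46 was 108%. With RSEM expected counts their log2 fold changes were -0.23, -0.28 and -0.20, all called lower by edgeR. Values of these 3 genes are uncertain to that extent, and whether copies account for the gap was not tested.

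Summed by class, transcript abundance showed where most of the RNA of these genes lay. The 6 peroxidases of the glutathione type together had 1503, 1408 and 1439 TPM for KO A to KO C and 1365, 1276 and 1349.9 TPM for WT A to WT C. Peroxiredoxins together had 1107, 1021 and 1057 TPM for KO A to KO C and 1199, 1204 and 1216 TPM for WT A to WT C. The 2 sums differed in opposite directions, with no overlap between genotypes in either. The higher peroxidase sum in KO rested on Gpx3: without it the other 5 summed to 818, 774 and 792 TPM for KO A to KO C and 820.3, 846 and 859.5 TPM for WT A to WT C, so the direction turned. For the thioredoxin class the sum was 509, 499.5 and 488 TPM for KO A to KO C and 569, 575 and 579.7 TPM for WT A to WT C, and for superoxide dismutases it was 575, 584 and 594 TPM for KO A to KO C and 649, 658 and 684 TPM for WT A to WT C. KO libraries were lower in both. The soluble transferases summed to 1093, 1234 and 1245 TPM for KO A to KO C and 1186, 1229 and 1249 TPM for WT A to WT C, with overlap; this sum holds both Gsto1, which rose, and the transferases that fell. Over all 46 genes the sum was 5575, 5534 and 5628 TPM for KO A to KO C and 5821, 5828 and 5954 TPM for WT A to WT C, a mean of 5579 ± 47.2 TPM in KO and 5868 ± 74.9 TPM in WT (SD, n = 3 each), 1.05-fold lower in KO with no overlap.

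**Figure D4:**
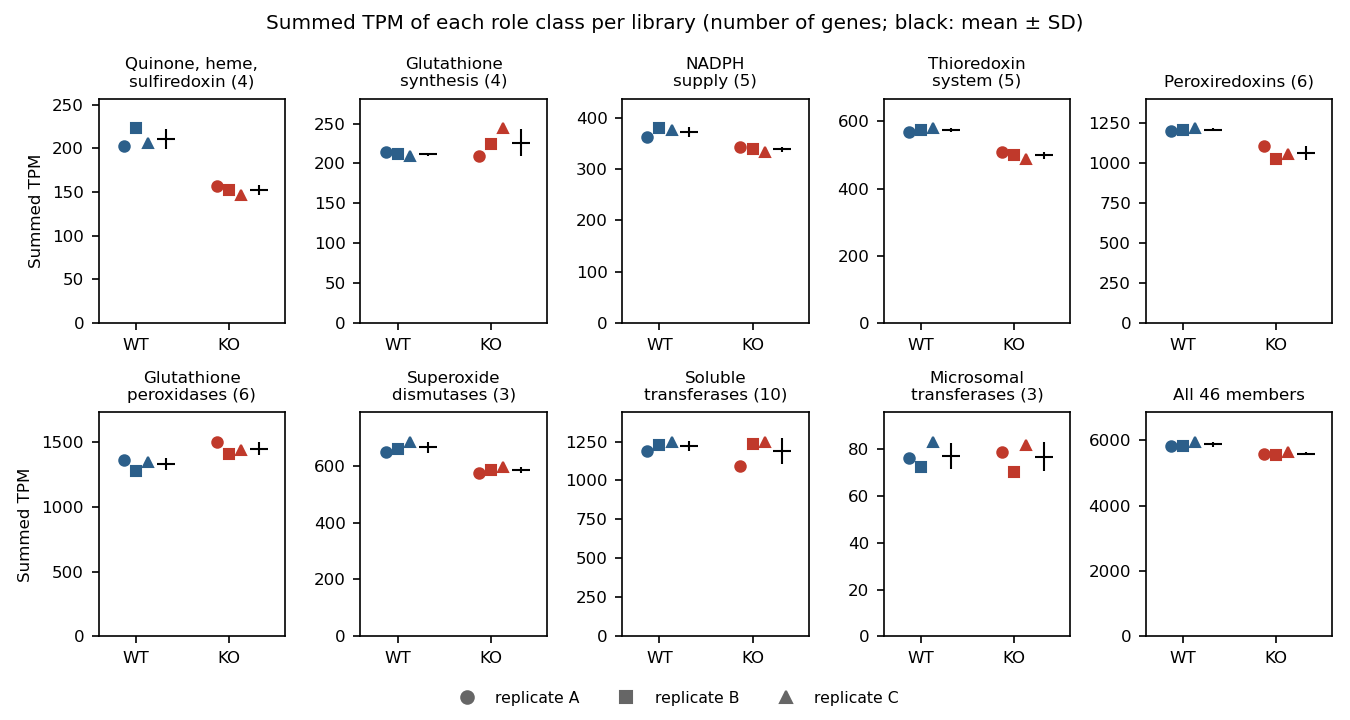
Summed TPM of each role class and of all 46 genes in every library (vertical axes start at 0), WT in blue and KO in red, with the mean ± SD in black. KO sums are below WT sums for the quinone, heme and sulfiredoxin, NADPH, thioredoxin, peroxiredoxin and superoxide dismutase classes and above them for the glutathione peroxidases (a direction that turns without Gpx3), and they overlap for the other 3 classes.

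A second list held 100 related genes that are not among the 46, of which 91 were tested: 14 rose (15.4%, against 12.5% of all genes), 26 fell (28.6%, against 11.1%) and 51 had no call. Their median log2 fold change was -0.067. The number that rose was 9, 9, 9, 6 and 8 on leaving out KO B, KO C, WT A, WT B and WT C in turn. Among 9 regulators of Nrf2 target genes, 2 rose and 1 fell, 3 of 9 genes where 23.6% of all genes were called, which is no result about the list. Nfe2l2 itself had 172, 179 and 181 CPM in KO against 187, 185 and 185 CPM in WT, with no call (log2 fold change -0.067, edgeR adjusted p = 0.173). Keap1, its inhibitor, Bach1, a repressor of the same elements, and the related factor Nfe2l1 were not called (log2 fold changes -0.078, 0.039 and -0.054). Of the small Maf genes listed, Maff and Mafk rose, whereas Mafg had a negative fold change and was not called. Maff had 37.3, 35.6 and 37.8 CPM in KO against 26.5, 28.9 and 22.5 CPM in WT (log2 fold change 0.51, SE 0.076, edgeR adjusted p = 3.99e-04). Mafk had 83.4, 85.3 and 89.7 CPM in KO against 65.4, 68.7 and 62.1 CPM in WT (log2 fold change 0.40, SE 0.045, edgeR adjusted p = 1.32e-05). Both were above every WT library in every KO library. Sqstm1, an adaptor that binds Keap1, fell 1.09-fold (adjusted p = 0.0184), a call lost without KO A, WT B or WT C (adjusted p up to 0.0673).

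Among 16 tested genes of glutathione turnover and transport 6 rose (37.5%, against 12.5% of all genes) and 3 fell (18.8%, against 11.1%). Abcc3, an exporter of conjugates, had 11.0, 9.44 and 11.5 CPM in KO against 5.78, 5.18 and 5.19 CPM in WT, a rise of 1.98-fold (log2 fold change 0.98, SE 0.11, edgeR adjusted p = 1.35e-05). Cth, which makes cysteine from cystathionine, had 21.1, 21.7 and 19.7 CPM in KO against 31.2, 33.5 and 28.8 CPM in WT (log2 fold change -0.58, SE 0.066, edgeR adjusted p = 1.46e-05). Abcc3 and Cth thus moved in opposite directions without overlap. They were named for their small p-values and do not stand for the other export and synthesis genes of the list. Oplah, the oxoprolinase of the glutathione cycle, fell 1.152-fold (adjusted p = 0.00112). The cystine transporter gene Slc7a11, named after its values were seen, had 92.7, 72.4 and 73.5 CPM in KO against 48.5, 47.9 and 49.2 CPM in WT (log2 fold change 0.71, SE 0.098, edgeR adjusted p = 0.00237).

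Of 22 further genes of the Nrf2 battery 10 fell (45.5%, against 11.1% of all genes) and 1 rose (4.55%, against 12.5%). Fth1, ferritin heavy chain, had 994, 919.9 and 951 CPM in KO against 1164, 1135 and 1168 CPM in WT (log2 fold change -0.28, SE 0.037, edgeR adjusted p = 6.65e-05). Ugdh and Akr7a5 fell 1.18-fold and 1.251-fold (edgeR adjusted p = 1.61e-04 and 3.97e-04). The single rise was that of Aldh3a1, an aldehyde dehydrogenase also named after its values were seen, with 16.1, 21.4 and 24.2 CPM in KO against 6.36, 10.2 and 8.01 CPM in WT (log2 fold change 1.32, SE 0.22, edgeR adjusted p = 0.00711). Of 22 other thiol redox genes 8 fell (36.4%, against 11.1% of all genes) and 2 rose (9.09%, against 12.5%). Among them Txnrd3, Selenow and Msra were lower by 1.26-fold, 1.12-fold and 1.27-fold (edgeR adjusted p = 0.00134, 0.00215 and 0.00271). Of 12 other genes listed under NADPH 3 fell (25%, against 11.1% of all genes) and 2 rose (16.7%, against 12.5%), so the rises were near that share. The malic enzyme gene Me2 and Idh2 fell 1.22-fold and 1.12-fold, whereas the malic enzyme gene Me3 rose 1.44-fold (edgeR adjusted p = 1.69e-04, 0.00416 and 0.00452). With Me1, the 3 malic enzyme genes had log2 fold changes of -0.70, -0.29 and 0.53. Of 10 other transferases tested 2 were called, where 23.6% of all genes were: Gsta2 rose and Gsto2 fell, from low levels of 0.383 and 1.49 CPM in WT (edgeR adjusted p = 0.0396 and 0.0478). Gsta2 overlapped between genotypes and was not called without any one of KO A, KO C, WT A, WT B and WT C, and Gsto2 was not called without any one of the 6 libraries.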

How the data were processed

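RNA-seq libraries from cTECs of 3 KO and 3 WT samples were analysed. The authors deposited, per library, STAR gene counts for unstranded and both strand settings and RSEM expected counts with TPM. Per the submitters' processing notes, bcl2fastq 2.17, STAR 2.5.1b and RSEM 1.2.28 were used and the build was GRCh38, a human build, while the identifiers are mouse Ensembl identifiers, so the build is uncertain. Symbols and positions came from GENCODE M21 (GRCm38), which matched 50376 of 50600 identifiers. Reads in rows naming no gene (18.43 to 19.81% of each library) were left out.

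Stranded counts were filtered (filterByExpr), scaled by TMM and tested with edgeR 4.0.16 (robust quasi-likelihood test, Benjamini-Hochberg over all genes) in R 4.3.3. The test was also run on simulated counts drawn with the fitted dispersions, a setting that need not match the spread of each gene here. SE is the log2 fold change divided by the square root of F, an approximation. Alternatives were other scalings, DESeq2 1.42.0, other low count filters, RSEM expected counts rounded to whole numbers, unstranded counts, limma 3.58.1 on log2 TPM with pseudocounts of 1 and 0.1, the replicate block and leaving out each library. The 46 genes and all lists were chosen with earlier results of these data known. Values in every library were given for each called gene of the 46 and the most abundant gene of each class; of the related genes, up to 3 called genes per list by increasing p were named, plus Nfe2l2, Keap1, Nfe2l1 and Bach1.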

Additional observations from a re-analysis of the deposited data

How the results depend on the processing

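Of 732 fold changes of the 46 genes under alternatives listed at the start, 656 kept their direction and side of the threshold, 52 lost a call, 17 gained one and 7 changed sign, all of genes not called in either fit. These were Gpx7 with limma on log2(TPM + 1) and log2(TPM + 0.1) (-0.0074 and -0.0077), Mgst2 with unstranded counts (-0.025) and without KO A (-0.044), Gsta3 and Gstm1 without KO C (-0.096 and -0.0015) and Txnrd2 without WT C (0.017). On leaving out each library in turn these ranged from -0.044 to 0.39 for Mgst2, -0.096 to 0.19 for Gsta3, -0.0015 to 0.16 for Gstm1 and -0.059 to 0.017 for Txnrd2. The related gene Nfe2l1, also not called, changed sign in both limma fits (0.074 and 0.075). Of the falls 12 of 23, and of the rises 3 of 4, were called in every such setting that tested them. With limma on log2(TPM + 1) all genes gave 1169 rises and 758 falls, the 46 gave 13 falls, the related genes 7 rises and 14 falls, and the median over the 46 was -0.12. A pseudocount of 0.1 gave 1119, 738, 13, 7, 14 and -0.12 for the same quantities. A pair of tests was chosen after seeing the data. Against a fold change of 1.2, all genes gave 752 rises and 202 falls, the 46 gave 2 falls and 3 rises, and the related genes 5 rises and 1 fall. Without robust estimation of the spread the 46 gave 5 rises and 23 falls. The cause of these shifts was not tested, apart from the stricter null of the fold test.

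Leaving out each library in turn gave 1239 to 1744 falls and 1476 to 1917 rises over all genes (the lowest number of falls without WT replicate C), 18 to 23 falls and 3 to 5 rises among the 46, 18 to 24 falls and 6 to 10 rises among the related genes, and medians of -0.17 to -0.13. Deviations from the group means of libraries with the same letter correlated at -0.0094, 0.1025 and -0.0471. For libraries with different letters the correlations were -0.0826 to 0.0928. With 3 libraries per group these values cannot decide whether the letters mark paired samples. With the letter as a replicate block the 46 gave 5 rises and 23 falls, the related genes 14 and 25, and all genes 2191 and 1906. Depth limits the low genes most: Sod3 and Mgst2 averaged 2.33 and 0.321 CPM in WT. Groups of 3 are too small for a test of outlying samples.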
